A study of Arabidopsis thaliana with 8 samples.

Results

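miR159 and miR319 are 2 related families of plant microRNAs, and of these only miR159a and miR159b gave values above the lowest one in the data. This held alike in seedlings treated with a brassinosteroid and in mock-treated seedlings. The members described here were chosen by their measured values, as rows named miR159 or miR319 above 0.01 on at least 1 array. Of the 5 such rows on the arrays, miR159a (locus AT1G73687) and miR159b (AT1G18075) met this, and both were above 0.01 on all 8 arrays. miR159c (AT2G46255), miR319a (AT4G23713) and miR319c (AT2G40805) were listed at 0.01 on all 8 arrays. The 2 members belong to the 47 miRNAs that were above 0.01 on any array, while 114 further miRNAs were at 0.01 throughout. The lowest value of miR159a was 0.864 and that of miR159b 0.886, while the 3 other rows stood exactly at 0.01. Each value is a ratio to the miRNA's own median, so its distance from 0.01 says nothing about the strength of the signal. How values of 0.01 were set is not described, so these 3 rows carry no comparison, and the results cover miR159 alone.

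Whole *Arabidopsis thaliana* seedlings (Col-0), grown for 7 days in shaken liquid medium under continuous light, received 24-epibrassinolide (EBR, an active brassinosteroid) at 10 nM or a mock solution with DMSO. Treatment lasted 30 min (EBR30 and its mock) or 180 min (EBR180 and its mock), and each of the 4 groups has 2 arrays, which the series describes as independent experiments. Since RNA came from whole seedlings, fewer cells of a type and less miRNA per cell cannot be told apart. The arrays measure miRNAs only, so no marker gene of a tissue could be checked.

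miR159 pairs with the mRNAs of GAMYB-like transcription factors, among them MYB33 (AT5G06100) and MYB65 (AT3G11440), which act in gibberellin-linked programmes of the seed aleurone and the anther. In vegetative tissue miR159 keeps these MYB mRNAs low, and plants that lack both miR159a and miR159b are stunted with curled leaves. miR319 has a closely related sequence and mainly pairs with mRNAs of TCP factors that control leaf growth, such as TCP2 (AT4G18390) and TCP4 (AT3G15030). None of these target mRNAs was measured here. The mature sequences of miR159a and miR159b are nearly identical, and no source used here says whether the probes separate them, so their values may not be independent of each other.

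The deposited value of each miRNA is a linear ratio to its own median over the 8 arrays. It shows how a miRNA differs between arrays, but not which of miR159a and miR159b is more abundant. The 43 miRNAs above 0.01 on every array were tested together. Their median ratio itself differed between arrays, from 0.818 on mock replicate 1 at 30 min to 1.12 on EBR180 replicate 1. On the log2 scale this array median was 0.22 higher on the 4 arrays at 180 min than on the 4 at 30 min, with p = 0.0286 in a two-sided exact permutation test, the lowest value this number of arrays can give. Each result on miR159 is therefore given as deposited and also centred, that is, after the array's median was subtracted on the log2 scale.

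At 30 min miR159a had ratios of 0.864 and 0.931 in mock (replicates 1 and 2, in this order throughout) and of 0.953 and 0.967 in EBR30. At 180 min its ratios were 1.03 and 1.10 in mock, then 1.17 and 1.06 in EBR180. Both EBR30 arrays lay above both mock arrays, whereas at 180 min the groups overlapped, because EBR180 replicate 2 fell between the mock arrays. miR159b had ratios of 0.886 and 0.941 in mock at 30 min and of 0.985 and 0.973 in EBR30. At 180 min these were 1.08 and 1.02 in mock, then 1.21 and 1.05 in EBR180. The pattern of miR159b was thus the same as that of miR159a, with no overlap at 30 min and an overlap at 180 min. Of the 43 tested miRNAs, 65.1% had both EBR30 arrays above both mock arrays, so the separation of miR159 at 30 min was one that most miRNAs had.

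**Figure D1:**
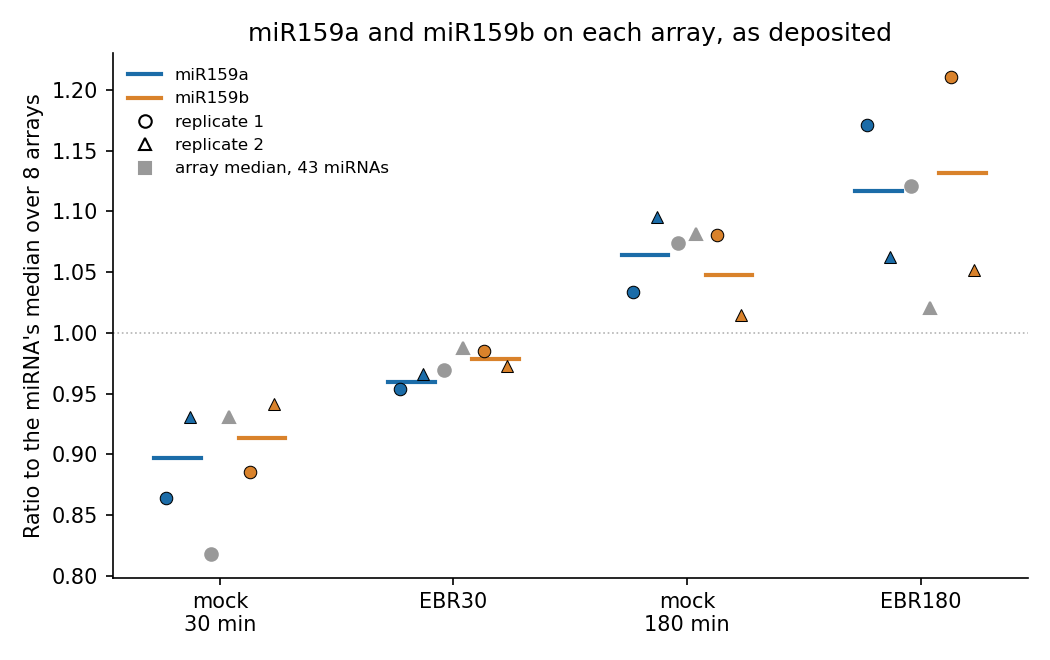
Ratio of miR159a (blue) and miR159b (orange) to their own median, by group on the x axis, with 1 symbol per array (circle, replicate 1; triangle, replicate 2) and a bar at the mean of the 2 arrays. Grey symbols give the median ratio of the 43 tested miRNAs on the same array, which goes from 0.818 to 1.12 and is followed closely by both miRNAs; the y axis does not start at 0.

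In order of the group means, miR159a went from 0.897 ± 0.0473 (SD, n = 2 arrays) in mock at 30 min through 0.960 ± 0.00923 in EBR30 and 1.06 ± 0.0437 in mock at 180 min to 1.12 ± 0.0767 in EBR180. The means of miR159b had the same order, at 0.914 ± 0.0394, 0.979 ± 0.00862, 1.05 ± 0.0461 and 1.13 ± 0.112. Neither step between mock and EBR passed the test in either miRNA, as given next, and the middle step, which joins different treatments, was not tested. The whole range over the 8 arrays was 1.36-fold for miR159a and 1.37-fold for miR159b. Ordered from the smallest range among the 43 tested miRNAs, they stood at places 10 and 11, below the median range of 1.50-fold.

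The comparison of EBR30 with mock asked whether miR159 responds within 30 min. The log2 fold change was 0.098 for miR159a, with a 95% confidence interval from -0.15 to 0.34 and an adjusted p of 0.530 (limma, Benjamini-Hochberg over the 43 miRNAs). For miR159b it was 0.10, with an interval from -0.15 to 0.35 and the same adjusted p. Neither miRNA was called, where 37.2% of the tested miRNAs were. Both changes were below the median of 0.18 over the 43 miRNAs, and the smallest change called had a size of 0.31, so that a change of miR159 by 0.31 in log2 lies inside both intervals. After centring, the sign turned in both, as it did with quantile normalization. The log2 fold change became -0.067 for miR159a (interval -0.18 to 0.045, adjusted p = 0.284) and -0.065 for miR159b (-0.20 to 0.073, adjusted p = 0.377). With centred values 18.6% of the miRNAs were called in this comparison, and miR159 was again not among them. Over all alternative settings the adjusted p went from 0.284 to 1 for miR159a and from 0.361 to 1 for miR159b. The unadjusted p was above 0.05 in both miRNAs with either scaling.

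The comparison at 180 min gave log2 fold changes of similar size. The value was 0.068 for miR159a (interval -0.18 to 0.31) and 0.11 for miR159b (-0.14 to 0.35), each with an adjusted p of 0.735 from limma. Neither was called, against 16.3% of the tested miRNAs, whose smallest called change had a size of 0.34. Here the median over the 43 miRNAs was -0.016, and centring moved the values of miR159 little, to 0.079 for miR159a (interval -0.033 to 0.19, adjusted p = 0.235) and 0.12 for miR159b (-0.020 to 0.26, adjusted p = 0.165). With centred values 30.2% of the miRNAs were called. The unadjusted p again stayed above 0.05 for both miRNAs.

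The EBR effect at 180 min was set against that at 30 min by an interaction term. As deposited, the effects of miR159a differed by -0.030 (interval -0.38 to 0.32, adjusted p = 0.886 from limma) and those of miR159b by 0.0078 (-0.34 to 0.36, adjusted p = 0.965). The difference of miR159b was the smallest in size among the 43 miRNAs and that of miR159a the next, and 25.6% of the 43 were called. After centring, the EBR effect was higher at 180 min by 0.15 for miR159a (interval -0.013 to 0.31, adjusted p = 0.141) and by 0.18 for miR159b (-0.012 to 0.38, adjusted p = 0.140). No call was made for either, against 34.9% of the miRNAs, and the unadjusted p values were 0.0657 and 0.0617.

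Relative to the array median, single arrays gave the following values. For miR159a the centred log2 value was 0.078 and 0 in mock at 30 min, against -0.024 and -0.031 in EBR30. At 180 min it was -0.055 and 0.018 in mock and 0.063 and 0.058 in EBR180. Relative to their arrays, both EBR30 values of miR159a thus lay below both mock values, and both EBR180 values above both mock values. Of the 43 miRNAs, 32.6% lay below mock at 30 min in this way and 37.2% above mock at 180 min. For miR159b the centred values were 0.11 and 0.016 in mock and 0.023 and -0.022 in EBR30, which overlap. They were 0.0085 and -0.091 in mock at 180 min and 0.11 and 0.043 in EBR180, where the groups did not overlap. The differences concerned are small, since the centred values of miR159a covered only 0.13 on the log2 scale over all 8 arrays, the third smallest range of the 43 miRNAs. The centred range of miR159b was 0.21, at place 9, while the median over the tested miRNAs was 0.42.

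**Figure D2:**
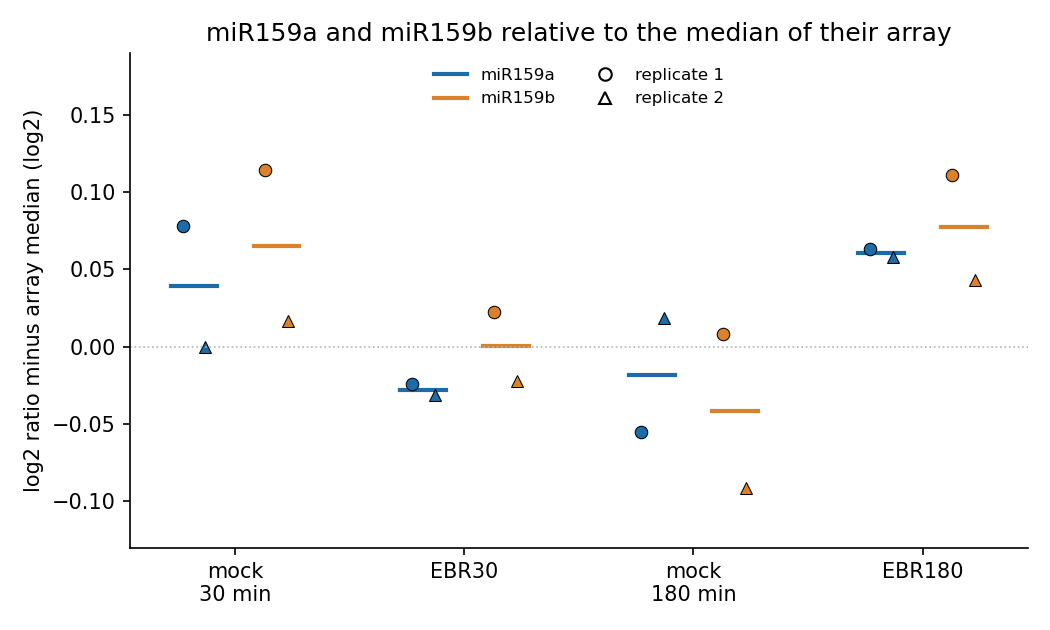
The log2 ratio of miR159a (blue) and miR159b (orange) minus the median log2 ratio of the same array, by group, with 1 symbol per array (circle, replicate 1; triangle, replicate 2) and bars at the means. All values lie between -0.091 and 0.11, and the EBR180 arrays of both miRNAs lie above their mock arrays, a difference that did not pass the test.

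As deposited, the largest differences of miR159 were those between the times, whereas after centring the differences between the EBR effects given above were larger. In mock seedlings the log2 fold change from 30 to 180 min was 0.25 for miR159a, with an interval from 0.00051 to 0.49, an unadjusted p of 0.0495 and an adjusted p of 0.0710 from limma. For miR159b it was 0.20 (interval -0.049 to 0.44, adjusted p = 0.138). Neither passed after adjustment, although 65.1% of the tested miRNAs did, and the median log2 change of all 43 was 0.29, above both. The adjusted p of miR159a went from 0.0219 to 0.777 over the alternative settings, so its call depends on them. In both miRNAs each mock array at 180 min lay above each at 30 min, as in 76.7% of the tested miRNAs. With centred values the sign turned, as with quantile normalization, to -0.058 for miR159a (interval -0.17 to 0.055, adjusted p = 0.386) and -0.11 for miR159b (-0.25 to 0.032, adjusted p = 0.205), where 34.9% of the miRNAs were called. The centred mock values of miR159b at 180 min were both lower than those at 30 min, as they were in 34.9% of the miRNAs, and those of miR159a overlapped.

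With EBR, miR159a was 0.22 higher in log2 at 180 than at 30 min (interval -0.029 to 0.46, adjusted p = 0.241 from limma) and miR159b 0.21 higher (-0.041 to 0.45, adjusted p = 0.268). These exceeded the median of 0.10 over the tested miRNAs, but neither was called, against 18.6% of the 43, whose smallest called change had a size of 0.46. The EBR180 arrays lay above the EBR30 arrays in both miRNAs, as in 51.2% of the 43. After centring, the differences were 0.089 (interval -0.024 to 0.20, adjusted p = 0.233) and 0.077 (-0.061 to 0.22, adjusted p = 0.357). Centred calls were made for 27.9% of the miRNAs, and both centred EBR180 values still lay above both EBR30 values in miR159a and miR159b, which held for 39.5%.

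**Figure D3:**
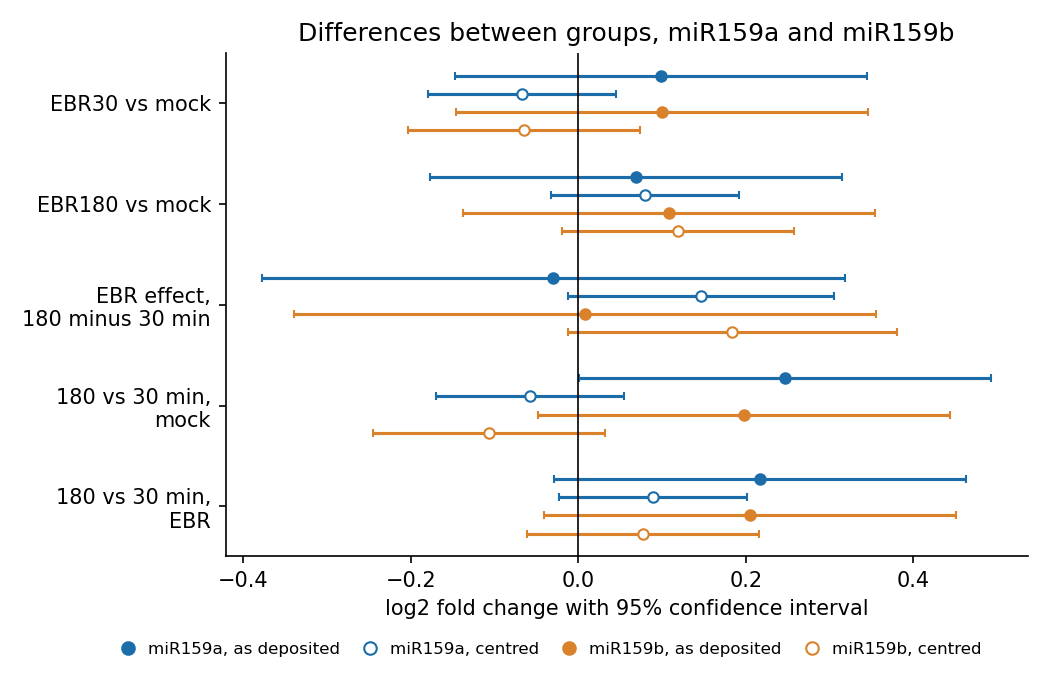
The log2 fold change of miR159a (blue) and miR159b (orange) with its 95% confidence interval from limma in 5 comparisons, for values as deposited (filled) and centred on the array median (open). Centring turns the sign of both miRNAs at EBR30 and in mock between times, and 0 lies inside every interval except that of miR159a between times in mock as deposited, which starts at 0.00051.

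When the 4 arrays at 180 min were set against the 4 at 30 min, over both treatments, every array at 180 min lay above every array at 30 min in miR159a and in miR159b, as in 27.9% of the tested miRNAs. The mean log2 ratio of miR159a was -0.11 at 30 min and 0.12 at 180 min, a difference of 0.23, and that of miR159b was -0.081 and 0.12, a difference of 0.20 (p = 0.0286 for each in two-sided exact permutation tests, again the lowest possible). This comparison was chosen after the values were seen. The array median moved by 0.22 over the same arrays, with the same p. After centring, 0.016 of the difference was left in miR159a (exact permutation p = 0.714) and -0.015 in miR159b (exact permutation p = 0.829). On these data a change of miR159 with time and a shift of the whole array cannot be told apart.

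Over the 4 groups together, limma's moderated F-test gave miR159a an unadjusted p of 0.0497 and an adjusted p of 0.0737, and miR159b 0.0855 and 0.115. So 0 of the 2 passed after adjustment and miR159a passed without it, while 62.8% of the tested miRNAs passed after adjustment and 67.4% without it. A one-way analysis without moderation, the kind of test named in the study's methods, takes the spread from each miRNA alone, and there the unadjusted p was 0.0336 for miR159a and 0.0825 for miR159b. In that form 51.2% of the miRNAs passed unadjusted, miR159a among them, and its adjusted p was 0.0802. After centring the F-test gave adjusted p values of 0.305 for miR159a and 0.286 for miR159b, and 48.8% of the miRNAs were called.

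**Figure D4:**
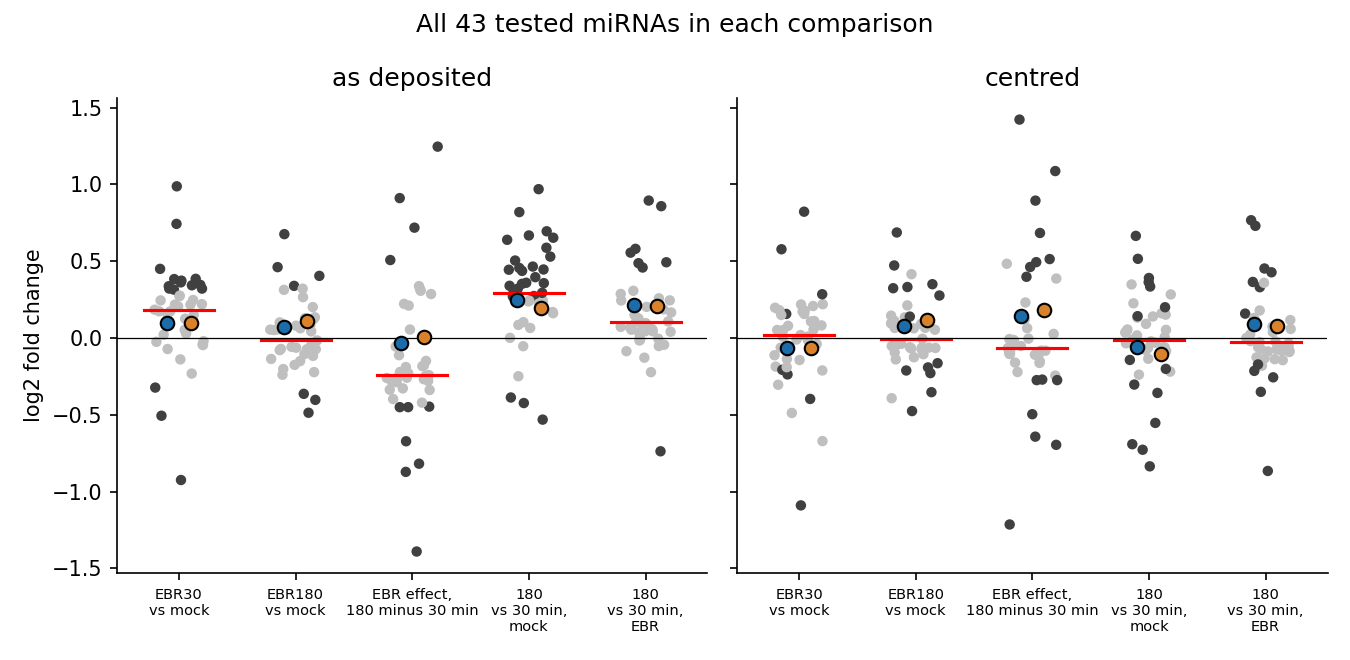
The log2 fold changes of the 43 tested miRNAs in 5 comparisons, as deposited (left) and centred (right), with miR159a in blue, miR159b in orange, the other called miRNAs in dark grey, those not called in light grey and the median of all 43 as a red line. miR159a and miR159b stay between -0.11 and 0.25 in all 5 comparisons, far from the miRNAs with the largest changes in either direction.

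miR159a and miR159b differed by at most 0.11 in log2 on any array, about the size of the miR159b log2 fold change at EBR180. The lowest and highest differences (miR159a minus miR159b), -0.064 and 0.11, both came from mock at 180 min. The log2 ratio of miR159a was below that of miR159b on 6 of the 8 arrays, by 0.0092 to 0.064, and above it on mock replicate 2 at 180 min, by 0.11, and on EBR180 replicate 2, by 0.015. Any scaling of a whole array cancels in this difference. The gap in log2 between the 2 arrays of a group went from 0.020 (EBR30) to 0.14 (EBR180) for miR159a and from 0.018 (EBR30) to 0.20 (EBR180) for miR159b. In EBR180 both gaps were larger than the difference from mock, and that of miR159b stood at place 33 of 43 from the smallest, above the median gap of 0.14. In EBR180 the array medians of the duplicates differed by 0.13 as well, and in mock at 30 min by 0.19, where the gaps were 0.11 for miR159a and 0.088 for miR159b. The precision of limma's intervals came from all 43 miRNAs, with 1 standard error of 0.125 for every log2 fold change between groups as deposited. This pooling takes the miRNAs as independent of each other, whereas those on an array share its shift. The intervals as deposited may therefore be too narrow and limma's p values too low for the 43 miRNAs as a set. For miR159 itself, limma's p values were not all lower than those from each miRNA's own spread. In the one-way analysis without moderation, the unadjusted p was 0.0336 for miR159a and 0.0825 for miR159b, against 0.0497 and 0.0855 in limma's F-test. The adjusted values went the other way, at 0.0802 and 0.121 against 0.0737 and 0.115. In mock between times, own spread gave adjusted p values of 0.0466 and 0.115, against 0.0710 and 0.138 with moderation. After centring the standard error was 0.0466 for miR159a and 0.0575 for miR159b.

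Across the 8 arrays, the log2 ratio of miR159a had a Pearson correlation of 0.934 (Spearman 0.976) with the median of the 41 other tested miRNAs, and that of miR159b 0.879 (Spearman 0.905). Without the 2 arrays farthest from the centre of that median, Pearson's r was 0.900 for miR159a and 0.797 for miR159b. The points share the array and its scaling. The correlation between miR159a and miR159b was 0.922 (Spearman 0.881). By Pearson's r, 3 miRNAs of other families came before the own relative of each, in part by very small margins. For miR159a these were miR170 (r = 0.961), miR156a (0.932) and miR173 (0.925), and for miR159b they were miR170 (0.948), miR171b (0.945) and miR171a (0.923). Their Spearman coefficients were 0.905, 0.952 and 0.929 with miR159a and 0.976, 0.952 and 0.881 with miR159b, where miR171a tied with miR159a. miR170 and miR171 pair with mRNAs of GRAS-family factors in the meristem, miR156 with those of SPL factors, and miR173 starts the production of trans-acting small RNAs. With centred values the order was another one. It was then led for miR159a by miR172e (r = 0.753), miR390a (0.664) and miR397a (0.646), and for miR159b by miR398b (0.815), miR399b (0.797) and miR171b (0.716), while miR159a and miR159b correlated at 0.592 (Spearman 0.714). Centred Spearman coefficients with miR159a were 0.714 for miR172e and 0.595 for both miR390a and miR397a. With miR159b they were 0.738 for each of miR398b, miR399b and miR171b.

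Beside miR159, 2 groups of developmental miRNAs show where it lies. Of the 6 rows of the phase-change miRNAs miR156, miR157 and miR172, which set the passage from juvenile to adult leaves, 5 were tested. Of these, 1 was called higher in EBR30 and 0 in EBR180 (limma, against 37.2% and 16.3% of all 43 miRNAs), and their median log2 fold changes were 0.24 and 0.063. Of 8 rows of auxin-linked miRNAs (miR160, miR164, miR167, miR390 and miR393), 4 were tested, with 1 called higher in EBR30, 0 in EBR180 and medians of 0.18 and 0.10. Between times in mock, 3 of the 5 phase-change and 2 of the 4 auxin-linked miRNAs were called, all higher at 180 min, where 65.1% of the 43 were called. In the same comparisons 0 of the 2 miR159 members were called, and as deposited their values lay on the same side of 0 as these medians. After centring, the calls of the lists were others, with 2 phase-change miRNAs lower and 1 auxin-linked miRNA higher in EBR30, 1 phase-change miRNA higher, 1 lower and 1 auxin-linked miRNA higher in EBR180, and 1 of each list lower at 180 min in mock. The centred shares over all 43 in these comparisons were 18.6%, 30.2% and 34.9%.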

How the data were processed

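Total RNA of whole seedlings was labelled with Cyanine 3 and hybridised to single-colour Agilent arrays with probes for 161 miRNAs. The authors deposited 1 linear ratio per miRNA and array, made with Agilent Feature Extraction 9.1 (submitters' processing notes) and GeneSpring, in which the median over samples served as baseline. Background correction, scaling between arrays and the treatment of dim spots are not given in the sources used here, nor is any signal level, so precision was judged from the spread between arrays, whose number limits it.

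Groups were taken from the sample titles. For the 43 miRNAs above 0.01 on all arrays, log2 ratios were fitted with limma 3.58.1 in R 4.3.3, with a mean for each of the 4 groups, empirical Bayes moderation and Benjamini-Hochberg adjustment over the 43 (threshold 0.05). The steps were tested on simulated data with independent noise of equal spread for all miRNAs. These data held no shift of a whole array, so they do not test how such shifts affect the intervals or calls. All members are named, with the 3 miRNAs most correlated with each. Members, lists and tests were chosen with earlier results of these data known. Locus names were matched by symbol in RefSeq's gene table (TAIR10.1) for all 5 rows. Alternatives were array centring, the replicate number as a block, quantile normalization, a trended robust prior, each miRNA's own spread, the compared groups alone, other filters, log2 of the ratio plus 1, adjustment over all 161 miRNAs and each array left out.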

Additional observations from a re-analysis of the deposited data

How the results depend on the processing

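Both scalings turned the direction of miR159 at EBR30 and between times in mock. Quantile normalization gave log2 fold changes of -0.081 (miR159a) and -0.049 (miR159b) at EBR30 and -0.035 and -0.069 in mock between times, and centring gave -0.067, -0.065, -0.058 and -0.11. The difference between EBR effects of miR159a turned to 0.15 with centring and 0.16 with quantile normalization. The difference of miR159b between the 4 arrays of each time turned to -0.015 with centring. The cause was not tested. With 1 array left out, the EBR180 effect of miR159a lay between -0.0017 (without EBR180 replicate 1) and 0.14 (without EBR180 replicate 2), that of miR159b between 0.0064 and 0.21 (the same arrays), and the difference between EBR effects between -0.10 and 0.040 for miR159a and between -0.094 and 0.11 for miR159b. The EBR30 effect of miR159a lay between 0.044 and 0.15 (without mock replicate 1 or 2), that of miR159b between 0.056 and 0.14 (the same arrays), and the difference between times with EBR between 0.15 and 0.29 for miR159a and between 0.10 and 0.31 for miR159b (without EBR180 replicate 1 or 2).

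In mock between times 1 member (miR159a) was called with the trended robust prior (adjusted p = 0.0219, with 31 of the 43 miRNAs called), with own spread (0.0466, with 22 of 43) and with partly detected miRNAs included (0.0418, with 27 of 47). With 1 array left out, 0 to 1 were called there: miR159a without mock replicate 2 at 30 min (log2 fold change 0.30, adjusted p = 0.0381) or either EBR180 array (0.0346), with 32 of 43 called in each case. In the F-test 2 passed with the trended robust prior, with 31 of 43 in all, and 0 to 2 with 1 array left out (1 without mock replicate 2 at 30 min, with 35 of 43, and 2 without EBR180 replicate 2, with 31 of 43). No member was called in the other comparisons under any alternative. The filter on small ranges removed miR159a, so it gives no count of members.

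The replicate 1 arrays of different groups deviated from group means with correlations of 0.11 to 0.36, but no label says that the number marks a shared experiment. With the replicate block the adjusted p of miR159a in mock between times was 0.0680, and no call of miR159 changed. Over all alternatives the miRNAs called went from 2 to 19 at EBR30 (16 as reported), 0 to 13 at EBR180 (7), 4 to 15 for the difference between effects (11), 10 to 32 in mock between times (28), 2 to 12 with EBR between times (8) and 9 to 35 in the F-test (27).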
